A study of Mus musculus with 10 samples.

Results

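Cbx2 and Ring1b, both subunits of the PRC1 complex, were compared within mouse embryonic stem cells (ESCs) by overlaying the list of Cbx2 peaks on the list of Ring1b peaks. Of 2335 Ring1b peaks, 427 shared at least 1 bp with a Cbx2 peak, which is 18.3% (exact 95% Clopper-Pearson interval 16.7 to 19.9%). The other 1908 held no Cbx2 peak. Seen from the other list, 522 of 1033 Cbx2 peaks (50.5%) lay over Ring1b and 511 did not. This share was 98.5% among peaks of at least 2000 bp in both lists and 68.5% without the Cbx2 peaks of a single 1000 bp window. The 6 lists of the series hold 9769 peaks in all.

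The cells were J1 ESCs, a mouse line grown in serum with LIF on feeder cells, which were depleted before chromatin was made. Ring1b, Cbx2, the methyltransferase Ezh2 and its mark H3K27me3 were mapped by ChIP-seq in these cells, and Ring1b and H3K27me3 also in neural stem cells (NSCs) that were differentiated from J1 ESCs in culture. All libraries were cross-linked in 1% formaldehyde for 10 min and sheared to about 250 bp. The paper's methods add an EGS cross-link before formaldehyde for Ring1b alone, and the labels list a separate input for it, so a difference between the lists cannot be told apart from a difference in fixation, antibody, depth or calling threshold. With 1 library per target there is no replicate check and no test was made. The intervals below cover counting error over peaks or start sites only, and start sites that share a Ring1b peak are not independent. In the main results a start site is the 5′ end of a gene record, 1 per record, so starts of its other transcripts were not counted. The lists give positions without heights, and the depth of each library is unknown.

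Ring1b is the E3 ligase of PRC1 that ubiquitylates histone H2A. Canonical PRC1 carries a Cbx protein such as Cbx2, whose chromodomain binds H3K27me3, whereas variant PRC1 complexes carry Rybp or Yaf2 in its place and can bind CpG islands without that mark. For its ESC Polycomb targets the paper also used peaks of Cbx7, which is not among the lists here. A Ring1b peak without a Cbx2 peak may therefore still carry canonical PRC1 with another Cbx protein. Polycomb proteins are known in ESCs for keeping genes of developmental regulators, such as the Hox clusters, silent.

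A few stretches of DNA show the contrasts that the results turn on. Each is read on the plus strand of mm9 (NCBIM37), 5′ to 3′, with every CpG in capitals. The first 3 are the 300 bases just before the start sites of Olig2 (chr16:91225495-91225794, intergenic, under Cbx2), Olig1 (chr16:91269714-91270013, intergenic, Ring1b without Cbx2) and Tbx3 (chr5:120120378-120120677, intergenic, in the widest Ring1b peak without Cbx2). The next pair comes from introns inside 1 Ring1b peak over Pax6, with chr2:105517001-105517300 under Cbx2 and chr2:105526101-105526400 outside it. The last (chr17:86017751-86018050, intron) lies under Cbx2 in the Ring1b peak over Six3.
Olig2: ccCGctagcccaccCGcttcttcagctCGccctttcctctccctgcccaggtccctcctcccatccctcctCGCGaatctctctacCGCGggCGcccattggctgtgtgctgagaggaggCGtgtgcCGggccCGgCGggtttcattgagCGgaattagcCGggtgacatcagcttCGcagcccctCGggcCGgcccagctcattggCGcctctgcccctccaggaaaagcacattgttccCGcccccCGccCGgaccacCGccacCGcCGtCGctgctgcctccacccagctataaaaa
Olig1: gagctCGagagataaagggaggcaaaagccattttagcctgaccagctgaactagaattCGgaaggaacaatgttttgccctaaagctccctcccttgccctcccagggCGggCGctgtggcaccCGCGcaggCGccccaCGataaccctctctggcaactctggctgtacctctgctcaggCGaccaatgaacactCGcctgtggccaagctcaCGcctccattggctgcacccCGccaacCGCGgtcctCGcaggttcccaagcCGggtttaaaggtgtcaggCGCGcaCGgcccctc
Tbx3: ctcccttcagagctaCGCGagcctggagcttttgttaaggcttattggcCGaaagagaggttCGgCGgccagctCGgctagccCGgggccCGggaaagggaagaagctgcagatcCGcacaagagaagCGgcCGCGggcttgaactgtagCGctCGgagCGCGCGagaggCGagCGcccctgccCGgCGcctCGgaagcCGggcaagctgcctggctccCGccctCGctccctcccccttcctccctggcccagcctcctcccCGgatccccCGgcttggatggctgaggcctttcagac
Pax6, under Cbx2: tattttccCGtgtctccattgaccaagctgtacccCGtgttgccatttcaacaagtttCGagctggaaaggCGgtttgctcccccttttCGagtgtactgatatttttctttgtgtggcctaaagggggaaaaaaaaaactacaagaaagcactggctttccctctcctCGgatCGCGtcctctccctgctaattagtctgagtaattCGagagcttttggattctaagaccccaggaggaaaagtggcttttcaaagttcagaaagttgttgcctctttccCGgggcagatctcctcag
Pax6, outside Cbx2: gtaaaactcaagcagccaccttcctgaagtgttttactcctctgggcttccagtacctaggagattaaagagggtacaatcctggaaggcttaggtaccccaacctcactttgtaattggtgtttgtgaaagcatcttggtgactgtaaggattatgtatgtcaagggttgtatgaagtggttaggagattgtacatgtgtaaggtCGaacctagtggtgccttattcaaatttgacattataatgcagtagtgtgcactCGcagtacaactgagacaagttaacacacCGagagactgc
Six3, under Cbx2: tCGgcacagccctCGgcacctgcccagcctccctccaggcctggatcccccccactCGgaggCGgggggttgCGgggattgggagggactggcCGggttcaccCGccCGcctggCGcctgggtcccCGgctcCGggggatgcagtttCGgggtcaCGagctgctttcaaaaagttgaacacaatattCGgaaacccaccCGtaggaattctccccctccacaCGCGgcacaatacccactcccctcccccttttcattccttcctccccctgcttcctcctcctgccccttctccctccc

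Counted in these letters, the Olig2 stretch held 25 CpGs, the Olig1 stretch 19 and the Tbx3 stretch 27. CpG number before the start site therefore did not follow Cbx2 in these 3 genes. Inside the Pax6 peak the stretch under Cbx2 held 10 CpGs and the stretch outside it 3, and the Six3 stretch held 17. Both patterns were met again over all peaks, as described further on.

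Width set Ring1b peaks with Cbx2 apart most plainly. Their median width was 6200 bp (95% order-statistic interval 5800 to 7000 bp), against 2000 bp for those without Cbx2. They were 18.3% of the peaks but covered 3.53 Mb, while the 1908 others covered 4.37 Mb. Among peaks of 1000 to 1800 bp, 14 of 863 (1.62%) held Cbx2, and among those of 2000 to 3800 bp 84 of 991 (8.48%) did. The share was 161 of 301 (53.5%, interval 47.7 to 59.2%) at 4000 to 7800 bp and 168 of 180 (93.3%, 88.6 to 96.5%) at 8000 bp and wider. A wide interval meets another list more readily than a narrow one. Comparisons of Ring1b peaks with and without Cbx2 are therefore also given within some or all of these width classes.

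**Figure D1:**
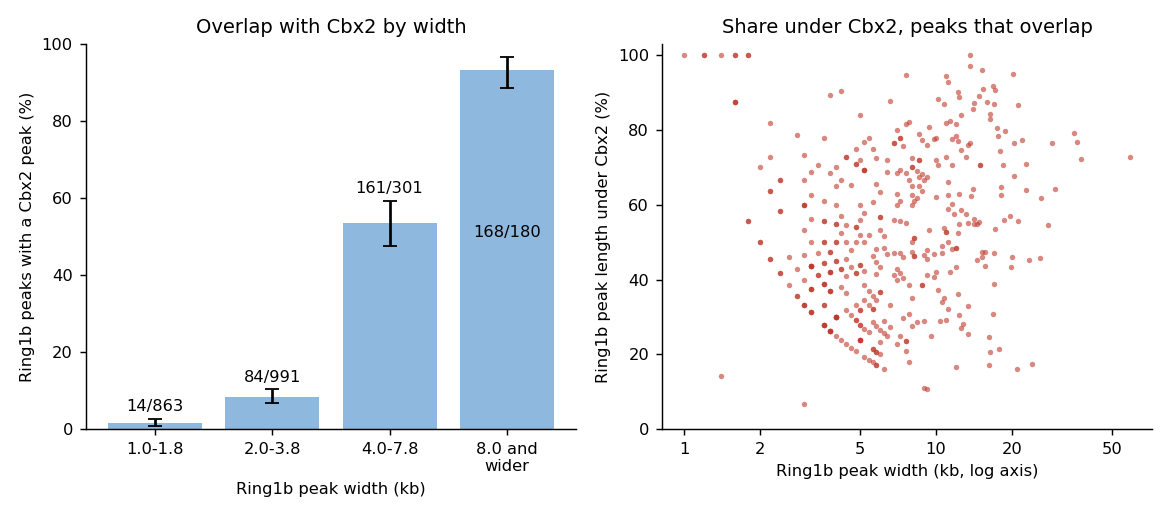
Left, percent of ESC Ring1b peaks that overlapped a Cbx2 peak by at least 1 bp, by Ring1b peak width in kb, with exact 95% intervals as error bars and the counts printed. Right, for each of the 427 overlapping Ring1b peaks (points), the percent of its length under Cbx2 against its width on a log axis. The share with Cbx2 was 1.62% in the narrowest class and 93.3% in the widest, while the percent of length under Cbx2 varied widely at every width.

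Outside the narrowest class, Cbx2 rarely filled a Ring1b peak. The median Ring1b peak with Cbx2 had 50% of its length under it (47.2 to 54.5%), with quartiles of 36.2% and 69.2%. Only 9 peaks lay fully under Cbx2, 20 had at least 90% of their length under it, and 36 had less than 25%. In bases, Cbx2 took 1.98 Mb of these peaks, which is 56.1% of their length and 25.1% of the length of all Ring1b peaks. The median share was 100% in the 14 peaks of 1000 to 1800 bp, where even a Cbx2 peak of a single window is 1000 bp wide, then 43.8% at 2000 to 3800 bp, 43.5% at 4000 to 7800 bp and 61.4% at 8000 bp and wider.

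Conversely, a Cbx2 peak that met Ring1b lay almost always within it. Of the 522, 499 were wholly inside a Ring1b peak (95.6%, 93.5 to 97.2%), 23 crossed an edge, and only 9600 bp of their 1.99 Mb lay outside. Of the 355 Ring1b peaks with 1 Cbx2 peak, 305 (85.9%, 81.9 to 89.4%) reached past it on both sides and 41 on 1 side. The Ring1b margin added over both sides had a median of 2600 bp. The other 72 Ring1b peaks held 2 or more Cbx2 peaks. No Cbx2 peak joined a pair of Ring1b peaks.

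The Hox clusters, which encode the homeodomain factors of the body axis, held the 5 Ring1b peaks with the most bases under Cbx2. The Ring1b peak from Hoxa5 to Hoxa11 (chr6:52146801-52205800) was the widest of the list at 59000 bp and carried 6 Cbx2 peaks over 43000 bp. In the Hoxc cluster, 28000 of 35400 bp over Hoxc11 to Hoxc9 and 22200 of 29000 bp over Hoxc8 to Hoxc5 were under Cbx2. Over Hoxd13 to Hoxd9 Cbx2 took 28000 of 36400 bp, and over Hoxb9 to Hoxb5 27200 of 37600 bp. All 5 of these peaks also overlapped ESC H3K27me3, ESC Ezh2, NSC H3K27me3 and NSC Ring1b peaks.

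The gaps between Cbx2 peaks left some Hox start sites bare. Within the Hoxa peak the start sites of Hoxa5, Hoxa9, Hoxa10, Hoxa11 and an annotated start of Hoxa3 lay under Cbx2, whereas those of Hoxa6 and Hoxa7 lay 555 bp and 1548 bp from the nearest Cbx2 peak. In the Hoxd peak, Hoxd12 started 2615 bp from Cbx2 while Hoxd13, Hoxd11, Hoxd10 and Hoxd9 started under it. All start sites of the Hoxb9 to Hoxb5 peak and of both Hoxc peaks were under Cbx2.

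The Hoxb cluster was split over several Ring1b peaks with unlike Cbx2 cover. At Hoxb2, 14800 of 17000 bp lay under 1 Cbx2 peak, which held the start site. Over Hoxb4 and Hoxb3, 3 Cbx2 peaks took 11800 of 25800 bp, and the start of Hoxb4 was under one of them while that of Hoxb3 was 1561 bp away. Hoxb1, at the 3′ end of the cluster, sat in a Ring1b peak of 3400 bp without Cbx2. At the other end, the Ring1b peak of Hoxb13 was 8000 bp wide with 2800 bp under Cbx2, and its start site lay 2830 bp from it.

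Outside the Hox clusters, the Ring1b peaks with the most Cbx2 lay over other homeobox genes and over genes of PRC1 itself. Six3, a factor of forebrain and eye development, had 19200 of 20200 bp under a single Cbx2 peak, the widest of the list. Dlx1 and Dlx2, a pair of forebrain homeobox genes that face each other, shared a Ring1b peak of 21200 bp with 18400 bp under 2 Cbx2 peaks, which held both start sites. Uncx, a homeobox gene of the somites, had 17000 of 22000 bp under Cbx2. Cbx8, which encodes another Cbx subunit, had 16200 of 26200 bp under 3 Cbx2 peaks. The Ring1b peak over Commd3 and Bmi1 (29600 bp, 19000 bp under Cbx2) held the start of Bmi1, a PCGF subunit of PRC1, under Cbx2 and that of Commd3 1990 bp from it.

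**Figure D2:**
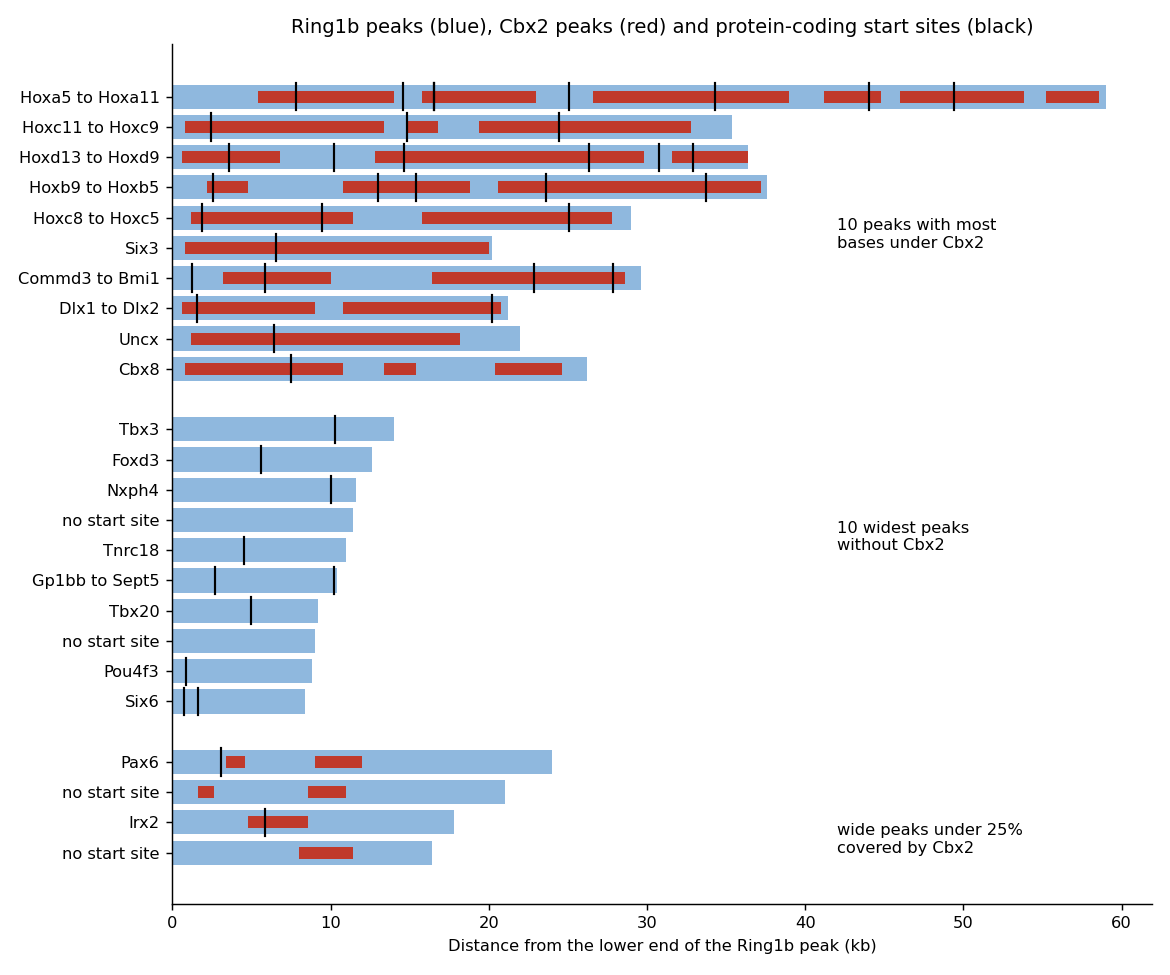
Ring1b peaks (blue), the Cbx2 peaks within them (red) and protein-coding start sites (black ticks), drawn from the lower end of each Ring1b peak in kb, for the 10 peaks with most bases under Cbx2, the 10 widest without Cbx2 and 4 wide peaks under 25% covered. The Hoxa5 to Hoxa11 peak spans 59000 bp with 6 Cbx2 peaks, the Tbx3 peak spans 14000 bp with none, and in the Pax6 peak 2 Cbx2 peaks take 4200 of 24000 bp.

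Near-complete cover was also found at Meis2, a homeobox gene whose product works with Hox proteins (15600 of 17200 bp), and at Dlx5 (14000 of 15400 bp). Both start sites were under Cbx2. A peak of 15200 bp with no protein-coding start site, its centre 13200 bp from that of Lhx2, had 14600 bp under Cbx2. The peak that held the start of Lhx2 itself was 5600 bp wide with 1600 bp under Cbx2, and the start lay outside it; Lhx2 was singled out after its values were seen.

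At the other extreme stood wide Ring1b peaks with little Cbx2. Pax6, a factor of eye and forebrain, had 4200 of 24000 bp under 2 Cbx2 peaks, and its start site was 348 bp from the nearer one. Irx2 (3800 of 17800 bp) had a single Cbx2 peak, which held the start site. A peak of 21000 bp around AI854517 and AC110909.1, which are not annotated as protein-coding, on chromosome 7 had 3400 bp under 2 Cbx2 peaks. Thus the start site of Irx2 was under Cbx2, whereas that of Pax6 was not.

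Of the 180 Ring1b peaks of 8000 bp and wider, 12 held no Cbx2 peak at all, and the 10 widest such peaks are named here. Tbx3, a T-box gene that also works in the pluripotency network, lay in the widest at 14000 bp. Foxd3, a forkhead gene active in ESCs and later in neural crest, followed with 12600 bp, then Nxph4, a neurexophilin gene, with 11600 bp. The peaks of Tnrc18 (11000 bp), Gp1bb with Sept5 (10400 bp), the cardiac T-box gene Tbx20 (9200 bp), Pou4f3 (8800 bp) and Six6 (8400 bp) held start sites. The centres of peaks of 11400 bp and 9000 bp lay 14043 bp from the start of Zfhx3 and 12411 bp from that of Wnt10a. Of these 10, the Tnrc18 peak met no ESC H3K27me3 peak, and the peaks of Tbx3, Tnrc18 and Six6 met no Ezh2 peak. The others met both lists.

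The Olig locus, which encodes bHLH factors of the oligodendrocyte and motor neuron lineages, showed both states next to each other. The Ring1b peak of Olig2 was 11600 bp wide, with 5600 bp under 1 Cbx2 peak that held the start site, and the Ring1b peak of Olig1 was 3200 bp wide without Cbx2. Both met ESC H3K27me3 and Ezh2 peaks, and neither met an NSC peak of Ring1b or H3K27me3. The start sites are those whose upstream bases are printed above.

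Cbx2 lay toward the start site, and somewhat downstream of it. Of 22350 protein-coding start sites, 1571 (7.03%) lay in a Ring1b peak, 368 of these (23.4%) in a Ring1b peak with Cbx2, and 249 (15.8%) under Cbx2 itself. Within the Ring1b peaks that held Cbx2, 249 of 368 start sites (67.7%, 62.6 to 72.4%) were under it. Their bases were 68.6% under Cbx2 within 1 kb of a start site and 53.0% beyond, a difference of 15.6 percentage points. Distance to the Ring1b edges was not taken into account. Of 31 such peaks with 2 or more start sites, 17 had all of them under Cbx2, 12 some and 2 none.

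Around the 368 start sites, the share under Cbx2 was highest 750 bp downstream, at 79.9%, and was 53.0% at 750 bp upstream. Ring1b covered 98.9% and 90.5% of the sites at these points. As a share of the sites covered by Ring1b, Cbx2 therefore took 80.5% (76.0 to 84.4%) downstream and 58.3% (52.8 to 63.6%) upstream. At 7750 bp these shares were 53.8% downstream and 48.3% upstream. Where 1 Cbx2 peak met a Ring1b peak with 1 start site (238 peaks), Ring1b reached a median of 2074 bp upstream and 3592 bp downstream, so Ring1b was placed downstream as well. In 151 of these the start site was under Cbx2, in 76 the Cbx2 peak lay wholly downstream, at a median distance of 495.5 bp, and in 11 wholly upstream.

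**Figure D3:**
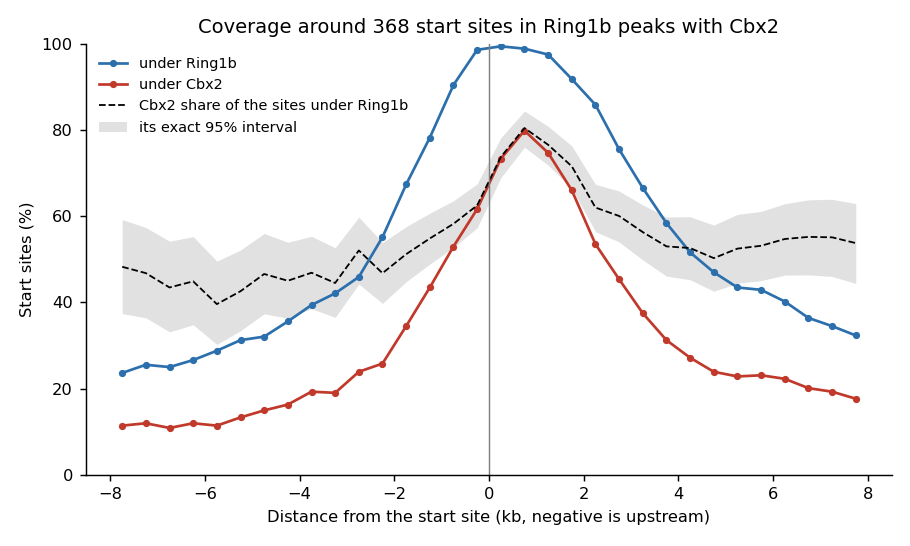
Percent of the 368 protein-coding start sites in Ring1b peaks with Cbx2 that were covered by Ring1b (blue) or Cbx2 (red) at each distance in kb, in 500 bp steps with negative values upstream, and Cbx2 as a percent of the sites covered by Ring1b (dashed, with its exact 95% interval in grey). Cbx2 is highest 750 bp downstream (79.9%) and lower at the same distance upstream (53.0%).

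Of the 427 Ring1b peaks with Cbx2, 109 (25.5%, 21.5 to 29.9%) held no protein-coding start site, and of these 26 held the start of another annotated gene. Among Ring1b peaks without Cbx2, 59.6% held a protein-coding start site, against 74.5% with Cbx2. In the 4000 to 7800 bp class the shares that held one were 75.2% with Cbx2 (67.7 to 81.6%) and 75.7% without (67.7 to 82.6%), and at 8000 bp and wider 87.5% and 83.3%, the latter over 12 peaks. In the 2000 to 3800 bp class the order was the other way, with 56.0% with Cbx2 (44.7 to 66.8%) and 67.7% without (64.5 to 70.7%). It was also the other way at 1000 to 1800 bp, with 3 of 14 peaks with Cbx2 and 408 of 849 (48.1%) without.

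CpG content differed within Ring1b peaks more than between them. CpG ratio is the number of CpGs over that expected from the C and G content. In 413 Ring1b peaks with at least 400 bp on each side of the division, the median CpG ratio was 0.652 under Cbx2 (0.638 to 0.669) and 0.433 outside it (0.416 to 0.454). The median difference within a peak was 0.211 (0.194 to 0.232), and the part under Cbx2 was higher in 370 of 413 peaks (89.6%). It amounted to 51.6 CpGs per kb under Cbx2 and 26.9 outside. GC content was 56.5% under Cbx2 and 51.3% outside. Most Ring1b peaks with 1 Cbx2 peak reached past it on both sides, so these are also contrasts of the inside of a peak with its edges. Position within the peak was not tested apart from Cbx2.

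The difference was also present in peaks without a protein-coding start site, from which those with other annotated starts were not left out. Starts of other transcripts, which were not counted, may also lie in these peaks. In the 98 such peaks among the 413, the CpG ratio under Cbx2 was higher by a median of 0.213 (0.170 to 0.264). It was higher by 0.254 in 216 peaks with a start site under Cbx2 and by 0.119 (0.0615 to 0.154) in 99 peaks whose start sites all lay outside Cbx2. Even in this last group, 76 of 99 peaks had the higher ratio under Cbx2. The Pax6 peak belongs to this group, whose median ratios were 0.669 under Cbx2 and 0.549 outside. The printed Pax6 stretches, with ratios of 0.605 and 0.217, lie further apart than these medians and are only 1 pair.

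Whole Ring1b peaks with Cbx2, by contrast, had a lower median CpG ratio than those without, 0.569 against 0.660. The ratios were 0.582 and 0.6765 at 1000 to 1800 bp, with 14 peaks with Cbx2, and 0.618 and 0.654 at 2000 to 3800 bp. In the 4000 to 7800 bp class the ratios were 0.595 and 0.624, but at 8000 bp and wider they were 0.535 with Cbx2 and 0.499 in the 12 peaks without. The 300 bases before start sites held a median of 19 CpGs (17 to 22) under Cbx2 and 21 (20 to 22) in Ring1b peaks without Cbx2, against 9 for all 22350 protein-coding start sites. At least 1 CpG was found in 93.9% of those 22350 windows. The quartiles were 12 and 27 under Cbx2 and 13 and 30 in Ring1b peaks without it, so the Olig2 stretch printed above, with 25 CpGs, and the Olig1 and Tbx3 stretches, with 19 and 27, each lie between the quartiles of their group.

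The part of a Ring1b peak under Cbx2 was more often under Ezh2 and H3K27me3 peaks than the rest of the same peak. That rest often lay at the edges of the peak, and position was not tested apart from Cbx2. Of the 413 peaks with at least 400 bp in each part, 376 met Ezh2, and in these a median of 87.5% of the Cbx2 part and 20% of the rest was under Ezh2, and the Cbx2 part had the larger share in 362 (96.3%). For ESC H3K27me3 the medians were 82.6% and 34.4% in the 383 of the 413 peaks that met it, with the Cbx2 part larger in 320. Summed over all bases, Ezh2 covered 70.6% of the Ring1b length under Cbx2 and 22.7% outside, and H3K27me3 66.9% and 34.6%. The lists from NSCs were laid out alike: NSC Ring1b covered 47.9% of the bases under ESC Cbx2 and 20.8% of the others, and NSC H3K27me3 50.7% and 26.1%.

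**Figure D4:**
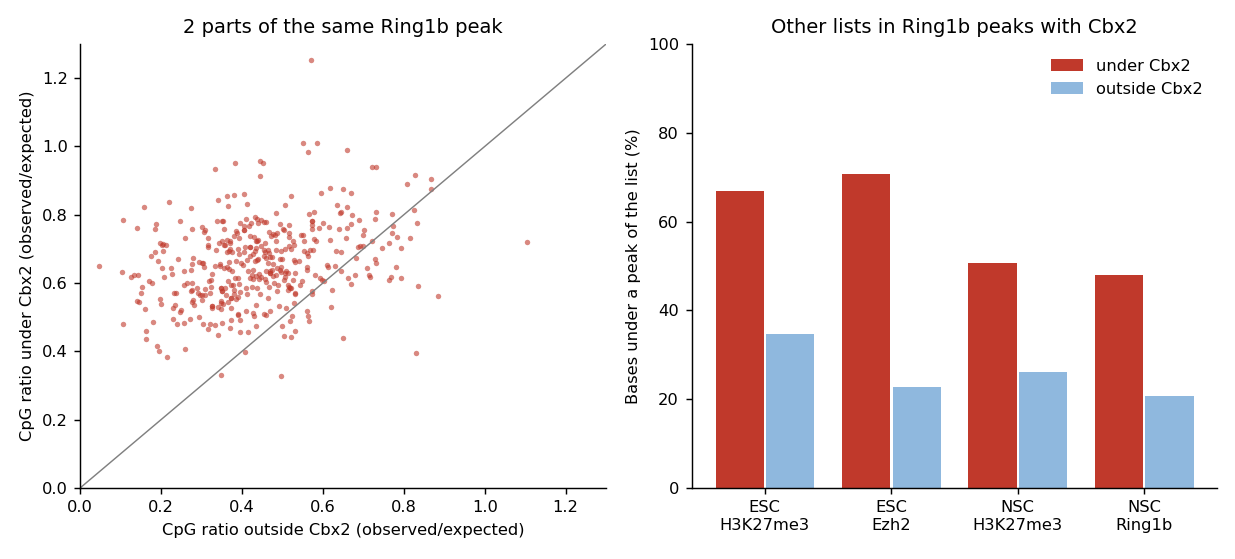
Left, CpG ratio (observed over expected) under Cbx2 against that outside Cbx2 within the same Ring1b peak, 1 point for each of 413 peaks, with the line of equal values; 370 points lie above it. Right, percent of bases under a peak of each other list, in the Ring1b length under Cbx2 (red) and outside it (blue), summed over the 427 Ring1b peaks with Cbx2; for Ezh2 the values are 70.6% and 22.7%.

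Ring1b peaks with Cbx2 met the PRC2 lists more often than those without. An Ezh2 peak was present in 385 of 427 (90.2%) and in 531 of 1908 (27.8%), and an H3K27me3 peak in 391 (91.6%) and 1014 (53.1%). At matched width the differences were smaller. In the 4000 to 7800 bp class Ezh2 was met by 90.7% with Cbx2 (85.1 to 94.7%) and 60.7% without (52.1 to 68.8%), and H3K27me3 by 91.3% and 74.3%. In the 2000 to 3800 bp class Ezh2 was met by 68 of 84 with Cbx2 and by 367 of 907 (40.5%) without.

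Ring1b peaks in NSCs were also met more often by ESC Ring1b peaks with Cbx2. In all, 217 ESC Ring1b peaks with Cbx2 (50.8%) and 240 without (12.6%) met an NSC Ring1b peak. In the 4000 to 7800 bp class the shares were 47.8% (39.9 to 55.8%) and 23.6% (16.8 to 31.5%), and at 2000 to 3800 bp 20.2% (12.3 to 30.4%) and 13.7% (11.5 to 16.1%), where the intervals overlap. At 1000 to 1800 bp they were 50% of 14 peaks and 9.3%, and at 8000 bp and wider 69% and 33.3%, the latter over 12 peaks. The difference was 40.7 percentage points in the narrowest class and 38.2 over all peaks, so it was not smaller there. NSC H3K27me3 was met by 58.4% and 35.0% in the 4000 to 7800 bp class.

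Lists of gene families show which Ring1b targets carried Cbx2 at the start site. Every list is to be read against 15.8% of all start sites in Ring1b peaks, and against its peak widths, since the share of start sites under Cbx2 was 0.457% in the narrowest width class, 3.18% and 28.3% in the middle classes, and 79.2% in the widest. Of 40 Hox start sites (Hoxa3 has 2), 38 lay in Ring1b peaks, 35 in Ring1b peaks with Cbx2 and 30 under Cbx2, where the width class rates alone give 25.8. The 38 shared 18 Ring1b peaks, so they are not independent of each other. Of them, 31 are also among the 197 start sites behind the rate of the widest class. The Hox start sites in Ring1b but not under Cbx2 included those of Hoxa6, Hoxa7, Hoxd12, Hoxb3 and Hoxb13, whose Ring1b peaks overlapped Cbx2. Hoxb1 and Hoxd1 lay in Ring1b peaks of 3400 bp and 2400 bp without Cbx2. Hoxc4 and Hoxd4 did not start in a Ring1b peak.

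In the Pax, LIM homeobox and forkhead lists most Ring1b start sites were under Cbx2, at counts near those that their peak widths give. In the Pax list, 8 of 9 start sites were in Ring1b and 6 under Cbx2, led by Pax2 (16200 of 22800 bp under Cbx2), Pax7 (15000 of 18800 bp) and Pax3 (13600 of 16400 bp), with Pax8 in a Ring1b peak of 3200 bp without Cbx2. In the LIM homeobox list, 8 of 10 were under Cbx2, among them Lhx5 (13800 of 17600 bp) and Lmx1b (13800 of 16400 bp), while Lmx1a lay in a Ring1b peak of 6200 bp without it. In the forkhead list, 14 of 20 were under Cbx2, including Foxf1a (10400 of 18600 bp) and Foxa1 (6600 of 17000 bp). Foxd3, Foxe1 (7200 bp) and Foxp2 (5400 bp) lay in Ring1b peaks without Cbx2. The width rates give 5.07 for Pax, 6.39 for LIM homeobox and 11.5 for forkhead genes.

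Smaller homeobox families had divided members. Of 6 Dlx start sites 4 were under Cbx2, including those of Dlx1, Dlx2 and Dlx5, whereas Dlx3 and Dlx4 lay in Ring1b peaks of 3600 bp and 5600 bp without it. Of 6 Irx start sites 4 were under Cbx2, led by Irx2, Irx5 (5800 of 10800 bp) and Irx3 (5000 of 10600 bp), and Irx4 (6400 bp) and Irx6 (2600 bp) lay in Ring1b peaks without it. Of 7 POU start sites in Ring1b 2 were under Cbx2, where the width rates give 3.23. These were Pou3f2 (14600 of 22800 bp) and Pou3f3 (7600 of 9400 bp), factors of neural precursors, while the sensory neuron factors Pou4f3, Pou4f2 (4600 bp) and Pou4f1 (4000 bp) lay in Ring1b peaks without it. Pou3f1, named after its values were seen, had 2600 of 5200 bp under Cbx2 with its start site outside. Nkx start sites were in Ring1b peaks with Cbx2 in 10 of 11 cases and under Cbx2 in 6, led by Nkx2-3 (13800 of 20400 bp) and Nkx2-2 (14000 of 17400 bp). The width rates give 3.48 each for Dlx and Irx and 5.15 for Nkx. Six3 and Six2 (7000 of 11200 bp) were under Cbx2, and Six6 was in a peak without it.

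In several lists the count under Cbx2 was below the width rate. Besides POU genes, among these were Gata (2 against 2.41), Zic (2 against 2.66), hedgehog (1 against 1.39) and PRC1 subunit genes (2 against 2.66), and also Sox and T-box genes. Sox genes, with 2 of 13 Ring1b start sites under Cbx2, stood at 4.21 by the width rates. The 2 were those of Sox17 (5800 of 8400 bp), an endoderm factor, and Sox9 (5600 of 7000 bp), a factor of cartilage and testis. Sox3 (6200 bp), Sox11 (4000 bp) and Sox7 (3200 bp) were in Ring1b peaks without Cbx2. T-box genes had 4 of 11 under Cbx2, against 5.91 by the width rates, led by Tbx2 (8000 of 17000 bp), Tbx18 (9000 of 14000 bp) and Tbx1 (10600 of 12600 bp), with Tbx3, Tbx20 and Tbx21 (2000 bp) in Ring1b peaks without it. With so few genes in a list, none of these gaps has a test.

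Proneural bHLH genes, which start neuronal fate, had 6 of 13 under Cbx2 where the width rates give 4.21. Neurog2 (8000 of 11000 bp), Neurod2 (3600 of 10600 bp) and Olig2 were among them, and Bhlhe22 (3400 bp) and Olig1 were in Ring1b peaks without Cbx2. Gata2 (6400 of 12200 bp) and Gata6 (6200 of 9200 bp) were under Cbx2, and Gata5 (2600 bp) was in a Ring1b peak without it. Zic1 and Zic4, which share a Ring1b peak of 11000 bp, were both under Cbx2, which took 9000 bp.

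Signalling genes lay in narrower Ring1b peaks. Of 16 Wnt start sites in Ring1b, at a median width of 3600 bp, 3 were under Cbx2, those of Wnt7b (2400 of 7800 bp), Wnt10b (2600 of 6000 bp) and Wnt6 (3400 of 3800 bp), where the width rates give 2.47. Wnt11 (6600 bp), Wnt10a (5400 bp), Wnt3 and Wnt3a (3600 bp each) were in Ring1b peaks without Cbx2. Fgf12 (1400 of 3600 bp) and Fgf8 (2000 of 3000 bp) were under Cbx2 of 8 Fgf start sites, and Gdf6 (1200 of 5600 bp) and Bmp7 (1600 of 3600 bp) of 8 Bmp and Gdf start sites. For these 2 lists the width rates give 1.01 and 0.729. Shh, the hedgehog ligand of the floor plate, had 5600 of 11200 bp under Cbx2, its start site included, whereas its receptor Ptch1 lay in a Ring1b peak of 3000 bp without it.

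Genes of neuronal function carried almost no Cbx2 and lay in narrow Ring1b peaks. None of 25 potassium channel start sites in Ring1b was under Cbx2, and 1 lay in a Ring1b peak with Cbx2. Their Ring1b peaks without Cbx2 included those of Kcnk9 (4400 bp), Kcnc2 and Kcnd3 (3400 bp each). None of 13 glutamate and GABA receptor start sites was under Cbx2, with Grm8 (4400 bp), Grm4 (4200 bp) and Grik3 (4000 bp) in the widest peaks. Of 19 axon guidance start sites only that of Sema5b (1200 of 4000 bp) was under Cbx2, and Efna3 (4600 bp), Slit2 and Unc5b (4200 bp each) were in Ring1b peaks without it. The width rates give 0.882, 1.31 and 1.95 for these 3 lists, so counts near 0 are also what peaks of these widths give over all genes.

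**Figure D5:**
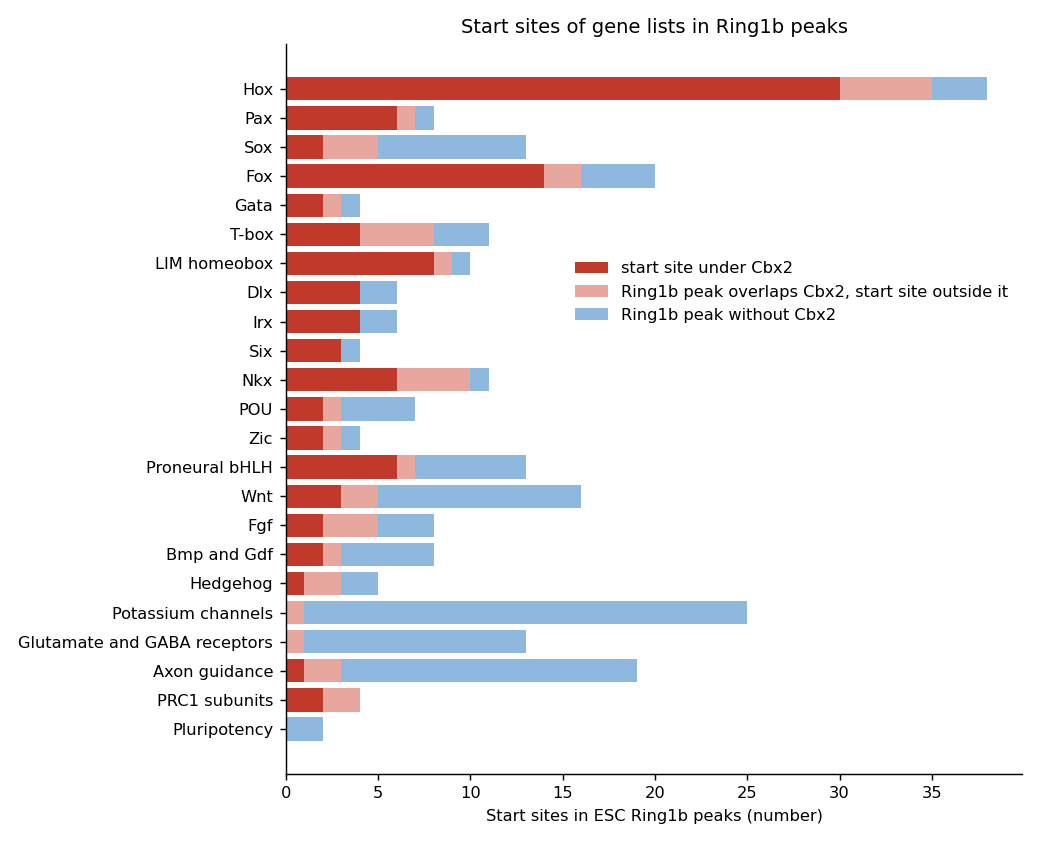
Number of start sites of each gene list in ESC Ring1b peaks, divided into those under Cbx2 (red), those outside Cbx2 in a Ring1b peak that overlaps it (pink) and those in a Ring1b peak without Cbx2 (blue). Of 38 Hox start sites 30 are under Cbx2, and of 25 potassium channel start sites 0 are.

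Of 20 start sites of PRC1 subunit genes 4 (20%) were in Ring1b peaks, where the share of all protein-coding start sites was 7.03%. All 4 lay in Ring1b peaks with Cbx2, against 23.4% of all start sites in Ring1b peaks. However, 3 of the 4 lay in peaks of 8000 bp and wider, where this share was 93.9% over all genes. The other lay in the 4000 to 7800 bp class, where it was 52.9%. Bmi1 and Cbx8 started under Cbx2, and Bcor, named after its values were seen, started outside it in a peak of 6400 bp. Of 11 start sites of PRC2 genes 1 (9.09%), that of the Polycomb-like subunit gene Phf19, was in a Ring1b peak, of 1000 bp without Cbx2. Of 15 start sites of pluripotency genes 2 (13.3%) were in Ring1b, Tbx3 and Prdm14 (2800 bp), neither with Cbx2. No start site of 75 ribosomal protein genes or of 1087 olfactory receptor genes was in a Ring1b peak.

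Cbx2 peaks that met no Ring1b peak differed from those over Ring1b in width, sequence and place. Genome-wide shares of these features were not computed, so likeness to the rest of the genome was not tested. The 511 had a median width of 1000 bp and 57.3% were 1 window wide, against 2600 bp (2200 to 2800 bp) and 9.20% for the 522 over Ring1b. Their median CpG ratio was 0.159, against 0.634 over Ring1b, and 9 of them held a protein-coding start site, against 231 of the 522. The centre lay between genes in 74.9% and in an exon in 3.52%, while over Ring1b these shares were 32.4% and 25.3%. Only 3 lay within 5 kb of a Ring1b peak, with a median distance of 783400 bp.

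The widest of these lone Cbx2 peaks was 3600 bp, near Gm10715 (chr9:3035401-3039000), and it also met H3K27me3 and Ezh2 peaks. It lay 5860800 bp from the nearest Ring1b peak, and whether tags map uniquely there was not checked. The next lay 55265 bp from the start of the zinc finger gene Zfp640 (3200 bp), 25820 bp from that of Nr2f2, an orphan nuclear receptor (2400 bp), in an intron near Wdr44 (2400 bp) and far from Slc2a12 (1800 bp). None of these 4 met an H3K27me3 or Ezh2 peak. The one near Nr2f2 lay 800 bp from a Ring1b peak.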

How the data were processed

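ChIP-seq of 4 targets in ESCs and 2 in NSCs was analysed, with 1 library per target. The 4 inputs were not analysed here. The deposited values are the start and end positions of peaks in mm9, 1 list per library, with no score or p-value. By the paper's methods, the authors mapped paired-end tags with Bowtie, whereas the submitters' processing notes name BWA. They compared ChIP with input in windows of 1000 bp every 200 bp and merged significant windows lying close together. Their choice of size parameter by inspection of the calls, and depth, which is unknown here, can move peak edges and the number of narrow peaks. All starts and ends were multiples of 200 bp, so positions within a peak are no finer than that.

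Overlaps of at least 1 bp, widths, covered bases and base composition were taken from the lists and the NCBIM37 (mm9) sequence (Python 3.11.15, numpy 2.4.6, scipy 1.17.1), with genes from GENCODE for mm9 and 22350 protein-coding start sites on 20 chromosomes. The overlap functions were tested on simulated data. Shares have exact Clopper-Pearson intervals and medians exact order-statistic intervals, both at 95% and over peaks or start sites. Counts by width rate add, over a list's start sites, the share under Cbx2 of all start sites in the same width class, and were added after the data were seen, as were the CpG counts before start sites, the division of the CpG ratio by start sites and the shares of peaks holding a start site by width. The members and gene lists were chosen with earlier results of these data known. Regions named are the 10 Ring1b peaks with most bases under Cbx2, the 10 widest without Cbx2, the 5 widest at least 90% and the 5 widest under 25% covered, the 5 widest lone Cbx2 peaks, and the Hoxb and Olig loci. Genes named are those starting in them and up to 3 per list under Cbx2 and in Ring1b peaks without it, by Ring1b width, a few of which are not reported here. Alternatives were an overlap of 50% of the shorter interval, peaks of at least 2000 bp, no Cbx2 peaks of 1 window, Ring1b peaks within 3000 bp merged, autosomes only, and start sites of all transcripts.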

Additional observations from a re-analysis of the deposited data

How the results depend on the processing

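Of 42 values recomputed under 6 alternatives, 33 stayed close to the reported value (within its interval, or within 1.5 times for a count), 9 moved and 0 reversed. With peaks of at least 2000 bp in both lists, 274 Ring1b peaks had Cbx2 (427 reported), the width difference was 6000 bp (4200 bp), the median share under Cbx2 58.3% (50%), start sites in Ring1b under Cbx2 18.7% (15.8%), the H3K27me3 difference 25.5 percentage points (38.4) and Cbx2 peaks over Ring1b 98.5% (50.5%). With Ring1b peaks within 3000 bp merged, the width difference was 5200 bp. Cbx2 peaks over Ring1b were 68.5% without Cbx2 peaks of 1 window and 54.0% on autosomes. The minimum of 2000 bp and the removal of 1-window peaks leave out narrow peaks by construction, and for merging and autosomes the cause was not tested. The share of Cbx2 peaks over Ring1b thus rests on how many narrow Cbx2 peaks are kept. No paired analysis was possible because each target has 1 library and the lists carry no replicate numbers. Binding of Cbx2 below the calling threshold is not visible in the lists.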

Other observations

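Cbx2 peaks without Ring1b were more frequent on the X chromosome than those over Ring1b. Of 69 Ring1b peaks on X, 9 held Cbx2 (13.0%, exact 95% interval 6.14 to 23.3%), and of 2266 on autosomes 418 did (18.4%, 16.9 to 20.1%), with overlapping intervals. Of the Cbx2 peaks that met no Ring1b peak, 75 of 511 (14.7%) lay on X, against 10 of 522 (1.92%) of those over Ring1b. Depth on X in these libraries, and the share of the genome that lies on X, were not analysed here.

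Wide Ring1b peaks on X lay near Bcor, which encodes a subunit of a variant PRC1 complex. A Ring1b peak of 16800 bp in an intron, its centre 75680 bp from the start of Bcor, had 15400 bp under 2 Cbx2 peaks. A second of 16400 bp, its centre 27280 bp from that start, had 3400 bp under 1 Cbx2 peak and met Ezh2 but no ESC H3K27me3 peak. The Ring1b peak that held the start of Bcor was 6400 bp wide with 3000 bp under Cbx2, and the start lay outside Cbx2. None of these 3 peaks met an NSC Ring1b peak.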
